A study of Drosophila melanogaster with 20 samples.

Results

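The levels of polyadenylated RNA were compared between adult males mutant for Mettl3 and yw control males, gene by gene, from the FPKM values (fragments counted per kilobase of transcript, scaled to the mapped fragments of the library) of the input libraries. Genes were kept when their FPKM averaged 1 or more across the 2 Mettl3 and 2 yw male libraries, which left 13001 of the 17276 genes in the table. The table comes from a study of m6A in whole flies that holds 10 input and 10 m6A immunoprecipitation libraries in 5 groups, with 2 of each kind in a group. Mettl3 males were Mettl3SK2/Df, an allele of the gene carried over a chromosome that lacks Mettl3 and some of its neighbours (Df(3R)Exel6197 in the methods of the study). The controls were yw males, a marked laboratory strain with intact writer genes, and yw females were read only for the level of the called genes in them. Males of Mettl14SK1 and of the Hakai mutant (Hakai4 in the labels, HakaiSH4 in the methods, a frameshift allele made with CRISPR/Cas9) have no such deficiency and were used for direct comparisons with Mettl3 males. All flies were 1 to 2 days old, and RNA was taken from whole animals, so a lower level of a tissue's transcripts cannot be told apart from a smaller amount of that tissue. The labels do not say whether the libraries of a group came from separate animals or RNA preparations, so p-values measure only the spread between these libraries, and the Mettl3 pair may hold less than 2 independent replicates. The deficiency, the mutant strain's other chromosomes and the loss of Mettl3 cannot be told apart in this design either. A gene was called when its limma adjusted p was under 0.05 and its fold change on the log2(FPKM + 1) scale was at least 1 in size.

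m6A (N6-methyladenosine) is a methyl mark on adenosines of messenger RNA, placed as the transcript is made. Mettl3 is the catalytic subunit of the writer and works as a pair with Mettl14, and a second group of proteins (Fl(2)d, Vir, Nito, Flacc and Hakai) binds this pair and is needed for full methylation. The readers Ythdc1, in the nucleus, and Ythdf, in the cytoplasm, bind marked transcripts and act on their splicing, translation or stability. Flies without Mettl3 live, but move poorly and have a weakened form of Sex-lethal splicing, the switch of sex determination.

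Mettl3 RNA itself fell but was not lost. On chromosome arm 3R (Release 6, bases 24032157 to 24034257, plus strand), it was at 5.22 and 5.17 FPKM in the yw male libraries and at 2.43 and 2.10 in the Mettl3 male libraries. Both Mettl3 libraries lay below both controls, and the Mettl3 mean was 0.435 of the yw mean (log2 fold change -0.93, SE 0.09, adjusted p = 0.0026). In Mettl14 males the transcript was at 6.72 and 7.01 and in Hakai males at 7.02 and 6.88, and the direct differences were -1.27 (adjusted p = 0.0012) and -1.29 (adjusted p = 0.0010) on the log2 scale. These reads include the transcript of the mutated allele, so the level says nothing of the protein. None of the other 8 writer and reader genes differed at any fold from yw males at an adjusted p under 0.05, and none had an unadjusted p under 0.05 in limma. Mettl14, the partner of Mettl3, was at 4.19 and 4.25 in yw males against 4.77 and 4.21 in Mettl3 males. Its log2 fold change of 0.07 has a 95% interval from -0.17 to 0.31. Hakai, a RING finger protein of the second group, was at 2.47 and 3.36 against 1.99 and 2.33 (log2 fold change -0.30, adjusted p = 0.33), and both Mettl3 libraries lay below both controls.

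Across the 13001 tested genes, 453 were called between Mettl3 and yw males (3.48% of those tested), 320 higher (2.46%) and 133 lower (1.02%) in Mettl3 males. At any fold, 1195 genes passed the adjusted p (9.19%), 783 higher (6.02%) and 412 lower (3.17%). An unadjusted p under 0.05 was reached by 26.4% of the tested genes, 16.1% higher and 10.3% lower. The median log2 fold change of all tested genes was 0.03, and 81.7% of them lay within 0.5 of 0. Of the called genes, 64 rose and 31 fell by 2 or more on the log2 scale, and 184 had a mean level under 5 FPKM. A gene that is near 0 in one group reaches the level filter only through the other: 97 of the genes called higher had a yw mean under 1 FPKM, and 36 of those called lower a Mettl3 mean under 1 FPKM. The Mettl3 libraries were closer to each other than any other pair: their median difference over genes was 0.055 on the log2 scale, against 0.193 for yw, 0.189 for Mettl14 and 0.214 for Hakai males. Mettl3 libraries also lay nearer to yw replicate 1 in 64.7% of the tested genes. In 65.6% of all tested genes the Mettl3 libraries did not overlap with the yw libraries (36.4% higher, 29.2% lower), so a lack of overlap alone says little here. Without Mettl3 replicate 1 or 2 the number of calls was 247 or 271, of which 236 and 248 were among the 453.

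**Figure D1:**
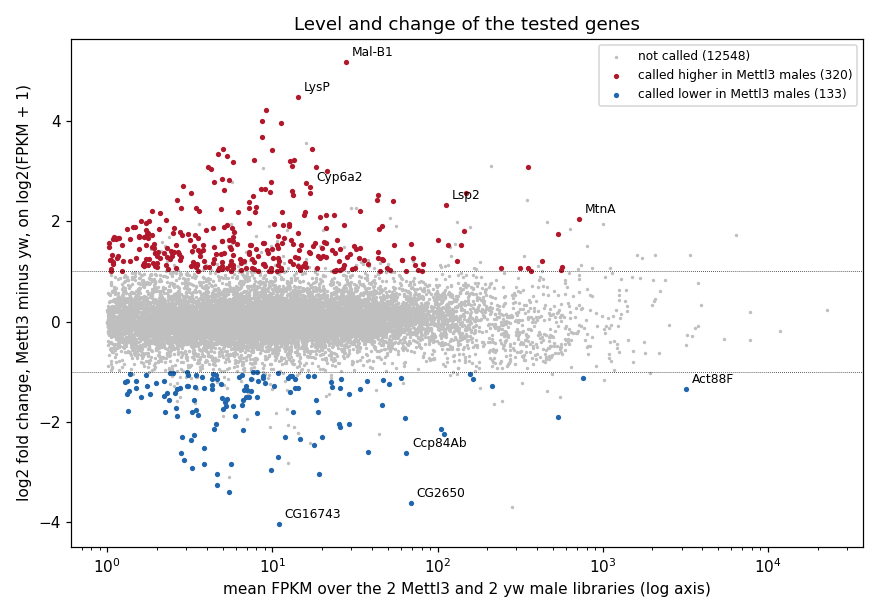
Each point is 1 of 13001 tested genes: the horizontal axis is the mean FPKM over the 2 Mettl3 and 2 yw male libraries (log axis) and the vertical axis the log2 fold change, Mettl3 minus yw males. The 320 genes called higher (red) and the 133 called lower (blue) reach from the level filter up to Act88F, and Mal-B1 and CG16743 mark the extremes of change.

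The genes beside Mettl3 were lower in Mettl3 males as a block. From Mettl3 to Npc2f, 21 consecutive tested genes over 108.78 kb (3R, Release 6, bases 24032157 to 24140936) all had both Mettl3 libraries below both yw libraries. Of all tested genes, 29.2% did. In the block the median ratio of Mettl3 to yw means was 0.536 (range 0.324 to 0.788). At any fold, 12 of the 21 passed the adjusted p as lower, where 3.17% of all tested genes did. At an unadjusted p under 0.05, 16 of the 21 were lower (10.3% of all tested genes). For the 21 genes the ratio of Mettl14 to yw means had a median of 1.06, and that of Hakai to yw means 1.04. Against Mettl14 males 16 of the 21 were lower at an adjusted p under 0.05 (5.88% of all tested genes), and against Hakai males 14 were (4.25%). The limits of the block were set after its values were seen. That all its genes were lower follows in part from that choice, and its shares are not those of a set fixed in advance. One further gene of the block in the table, lncRNA:CR44097, was under the level filter. Within fixed windows around Mettl3, 6 of 19 tested genes were lower at 50 kb, 11 of 34 at 100 kb, 12 of 86 at 250 kb and 18 of 281 at 1000 kb. In each of the windows of 50, 100 and 250 kb 1 gene was higher, and at 1000 kb 8 were. Without Mettl3 replicate 1 or 2, 4 or 3 of the 21 genes, and the same numbers of the 86, were past the adjusted p.

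Among the named genes of the block, Atg6 is the fly Beclin, which acts in the start of autophagy. It was at 11.9 and 12.9 FPKM in yw males and at 5.22 and 5.02 in Mettl3 males, and it was at 10.8 to 13.2 in the 4 Mettl14 and Hakai libraries. Only the Mettl3 pair was low (log2 fold change -1.13, SE 0.12, adjusted p = 0.0035), and it was lower than both other mutants (-1.05, adjusted p = 0.0047, and -1.08, adjusted p = 0.0042). SMC1, a subunit of the cohesin ring that holds sister chromatids together, went from 9.70 and 8.46 to 4.57 and 4.04 (-0.93, SE 0.12, adjusted p = 0.0062). Miro, a mitochondrial GTPase that links mitochondria to motor proteins, went from 35.2 and 30.9 to 20.4 and 19.9 (-0.68, adjusted p = 0.013), and the groups did not overlap in either gene. Tsc1, a brake on growth signalling through TOR, lies further along and went from 9.42 and 8.54 to 4.97 and 4.80 (-0.76, adjusted p = 0.0076). Pisd, an enzyme of phospholipid synthesis in mitochondria, and CG13605 completed the 3 called genes of the block with Atg6, at -1.01 (adjusted p = 0.035) and -1.10 (adjusted p = 0.018). Both lost that call without yw replicate 2 (adjusted p = 0.080 and 0.094) and without Mettl3 replicate 1 (0.22 and 0.12) or 2 (0.15 and 0.13).

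Other members of the block were also lower, with more scatter among the libraries. Syx1A, the syntaxin of synaptic vesicle release, was at 11.3 and 14.6 in yw males and at 6.65 and 6.81 in Mettl3 males, but at 20.3 and 7.82 in Mettl14 males and 26.0 and 4.53 in Hakai males. Its log2 fold change of -0.84 had an SE of 0.74 and an adjusted p of 0.50, and it overlaps eIF4EHP on the same strand, so reads could be split between them. Hsp68, a heat-inducible chaperone, had the lowest ratio of the block (0.324) with yw values of 319 and 1069.7 against 223 and 226 (adjusted p = 0.27). Its ratio to yw was also the lowest of the block in Mettl14 males (0.573) and in Hakai males (0.498). The 10 tested genes before the block, CG31140 to KrT95D, had a median ratio of 1.08 with 0 of 10 lower at an adjusted p under 0.05, and the 10 after it, Kal1 to CG5510, had 1.04 with 0 of 10. At an unadjusted p under 0.05 (10.3% of all tested genes lower and 16.1% higher), limma gave 0 lower in both flanks. It gave 3 higher before the block and 0 after it. One of these, mir-9381, was called higher, at 1.24 and 1.97 in yw males against 7.63 and 9.52 (1.89, SE 0.17, adjusted p = 0.0016), and it overlaps lncRNA:CR31451 on the same strand. In running medians of 11 consecutive tested genes, the lowest value within the block was -0.84 (CG5986 to CG13605). The lowest that did not touch it was -0.71 (l(3)72Dr to CG4962 on 3L), and the highest was 1.13 (side-VIII to CG30151 on 2R).

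**Figure D2:**
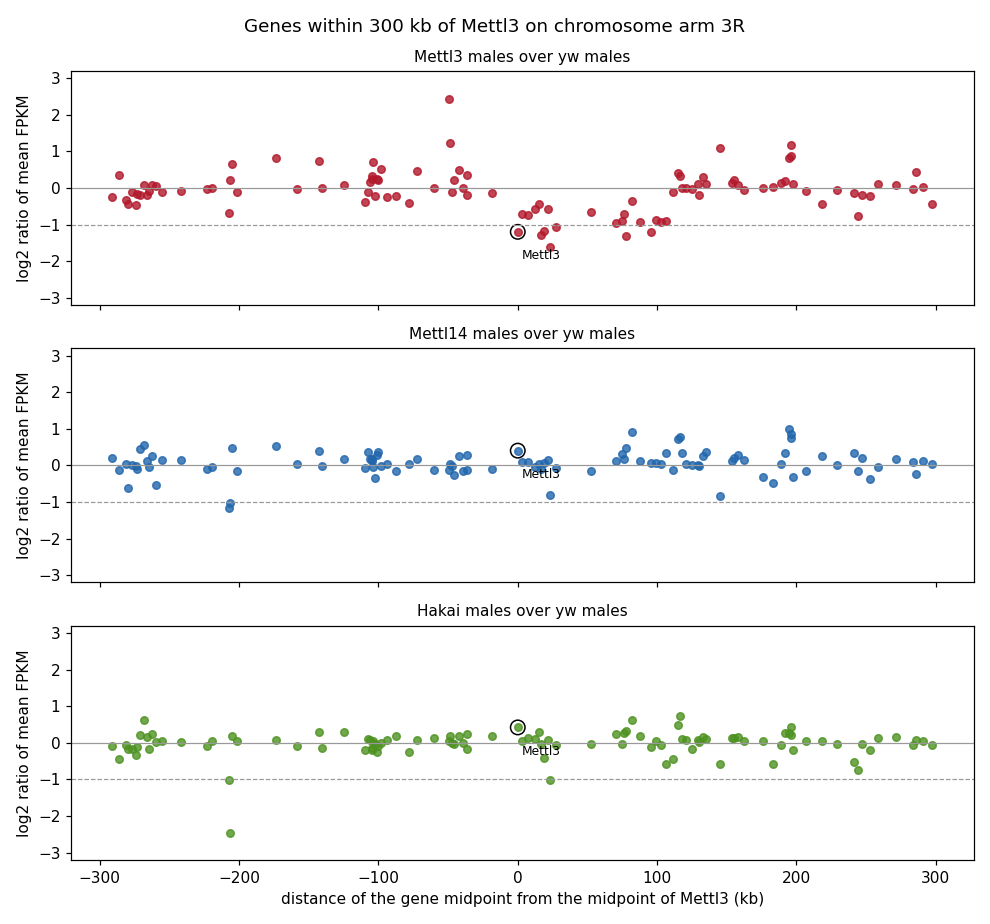
Each point is a tested gene within 300 kb of Mettl3 (circled); the horizontal axis is the distance between gene midpoints in kb and the vertical axis the log2 ratio of mean FPKM over yw males, in Mettl3, Mettl14 and Hakai males from top to bottom. The 21 genes from Mettl3 to about 107 kb to its right all lie below 0 in Mettl3 males, with a median ratio of 0.536, while their median ratios are 1.06 and 1.04 in the panels of Mettl14 and Hakai males.

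The genes that rose most in Mettl3 males included enzymes, a lysozyme and several non-coding RNAs. Mal-B1 (2L, bases 11847226 to 11849169), a maltase that splits sugars, was at 0.363 and 0.784 FPKM in yw males and at 55.5 and 54.8 in Mettl3 males, with 2.95 and 2.86 in Mettl14 males and 15.5 and 12.8 in Hakai males. The 4 groups were fully apart, and the Mettl3 pair was the highest (log2 fold change 5.17, SE 0.15, adjusted p = 0.00016), above Mettl14 by 3.85 (adjusted p = 0.00012) and above Hakai by 1.89 (adjusted p = 0.0013). LysP, a lysozyme that cuts bacterial cell walls, was at 0.163 and 0.470 against 25.6 and 30.5 (4.47, SE 0.29, adjusted p = 0.00045). CG15116, annotated as a glutathione peroxidase, was at 0 and 0.0644 against 19.1 and 17.3 (4.22, SE 0.21, adjusted p = 0.00021). LysP at 23.4 to 72.7 and CG15116 at 12.2 to 38.6 were also well above yw in all 4 Mettl14 and Hakai libraries.

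HSPBAP1 and lncRNA:CR44971 were high in Mettl3 males alone. HSPBAP1 (3R, bases 27695235 to 27696531) was at 1.47 and 1.94 in yw males, 23.4 and 24.4 in Mettl3 males, 1.86 and 2.04 in Mettl14 males and 2.06 and 2.29 in Hakai males. The Mettl3 pair was above yw by 3.21 (SE 0.12, adjusted p = 0.00016), above Mettl14 by 3.08 (adjusted p = 0.00012) and above Hakai by 2.97 (adjusted p = 0.00013). lncRNA:CR44971 (2L, bases 12841517 to 12841895) was at 10.3 and 9.72 in Mettl3 males, and in the 6 other male libraries it was at 0.354 or less and listed at 0 in 4 of them (3.43, SE 0.15, adjusted p = 0.00018). Among the 15 largest rises, CG43954 lost its call without any 1 of the 4 libraries (adjusted p = 0.074 to 0.19) and overlaps 2 genes on the same strand. The small RNA gene snoRNA:Me28S-C1237 lies inside CG5953 on the same strand. None of the 14 other than CG43954 lost its call in any alternative in which it was tested, and those with a mean under 5 FPKM were not tested where that level was required.

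Of the 5 most abundant genes called higher, MtnA, a metallothionein that binds copper and other metals, rose most. It was at 334 and 232 FPKM in yw males and at 1149.9 and 1141 in Mettl3 males, with 502 and 433 in Mettl14 males and 917 and 1025 in Hakai males (log2 fold change 2.04, SE 0.20, adjusted p = 0.0023). The Mettl3 pair lay above Mettl14 by 1.29 (adjusted p = 0.012), while its difference from Hakai was 0.24 (adjusted p = 0.48). Thor, the fly 4E-BP that holds back cap-dependent translation, was at 271 and 247 against 598 and 594 (1.20, SE 0.12, adjusted p = 0.0023). Thor was higher in Mettl3 males than in Mettl14 males by 0.82 (adjusted p = 0.0097) and than in Hakai males by 1.01 (adjusted p = 0.0047). SP, the sex peptide passed to females at mating, was at 354 and 166 against 843 and 791 (1.75, SE 0.35, adjusted p = 0.029). SP lost its call without Mettl3 replicate 1 or 2 (adjusted p = 0.18 and 0.15) and in a fit of only the 4 libraries compared (0.072).

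The largest falls took several genes close to 0. CG16743 (2L, bases 10972280 to 10973408), a gene with no GO term in the table, was at 22.5 and 20.4 FPKM in yw males and at 0.193 and 0.584 in Mettl3 males, against 31.0 and 43.2 in Mettl14 males and 36.9 and 38.6 in Hakai males. Only the Mettl3 pair was low: the log2 fold change was -4.03 (SE 0.19, adjusted p = 0.00021), with -4.77 against Mettl14 (adjusted p = 0.00012) and -4.82 against Hakai (adjusted p = 0.00013). CG2650 (X, bases 2692732 to 2693886), annotated to the extracellular space, was at 80.9 and 176 against 8.54 and 9.01 (-3.62, SE 0.34, adjusted p = 0.0018), and at 69.5 to 149 in the 4 Mettl14 and Hakai libraries. mthl8, a G protein-coupled receptor of the methuselah-like family, was at 5.98 and 5.64 in yw males and at 0.00857 and 0.0113 in Mettl3 males. In the other mutants mthl8 was at 3.39 to 4.11, and the Mettl3 pair lay apart from all 6 other libraries (-2.75, SE 0.11, adjusted p = 0.00016).

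Other genes that fell in Mettl3 males were also low in one or both of the other mutants. se (sepia), the enzyme that makes a precursor of the red eye pigments, was at 55.4 and 76.0 in yw males and at 10.3 and 9.49 in Mettl3 males, with 16.5 and 21.9 in Mettl14 males and 8.97 and 12.5 in Hakai males (-2.60, SE 0.22, adjusted p = 0.0014). Its direct differences were -0.88 from Mettl14 (adjusted p = 0.055) and -0.10 from Hakai (adjusted p = 0.80). CG10725, annotated as chitin binding, was at 9.08 and 12.6 in yw males, 0.150 and 0.0939 in Mettl3 males, 2.27 and 3.38 in Mettl14 males and 0.194 and 0.395 in Hakai males. Both Mettl14 libraries also lay below yw, and the Mettl3 and Hakai pairs were lower still (Mettl3 against yw -3.39, SE 0.20, adjusted p = 0.00037). MtnE, another metallothionein, moved opposite to MtnA: it was at 29.0 and 40.7 in yw males and at 3.27 and 3.32 in Mettl3 males (-3.04, SE 0.39, adjusted p = 0.0063). MtnE was also lower than in Mettl14 males (16.4 and 35.2; -2.55, adjusted p = 0.011) and Hakai males (9.21 and 15.7; -1.60, adjusted p = 0.046). The calls of MtnE were lost without Mettl3 replicate 1 (adjusted p = 0.057) or 2 (0.052). Of the 15 largest falls, cola and hpRNA:CR46343 also lost their calls that way (adjusted p = 0.067 to 0.12), as did Ccp84Ab without replicate 1 (0.053). cola in addition lost it without yw replicate 1 (0.051), and both cola and hpRNA:CR46343 overlap another gene on the same strand.

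**Figure D3:**
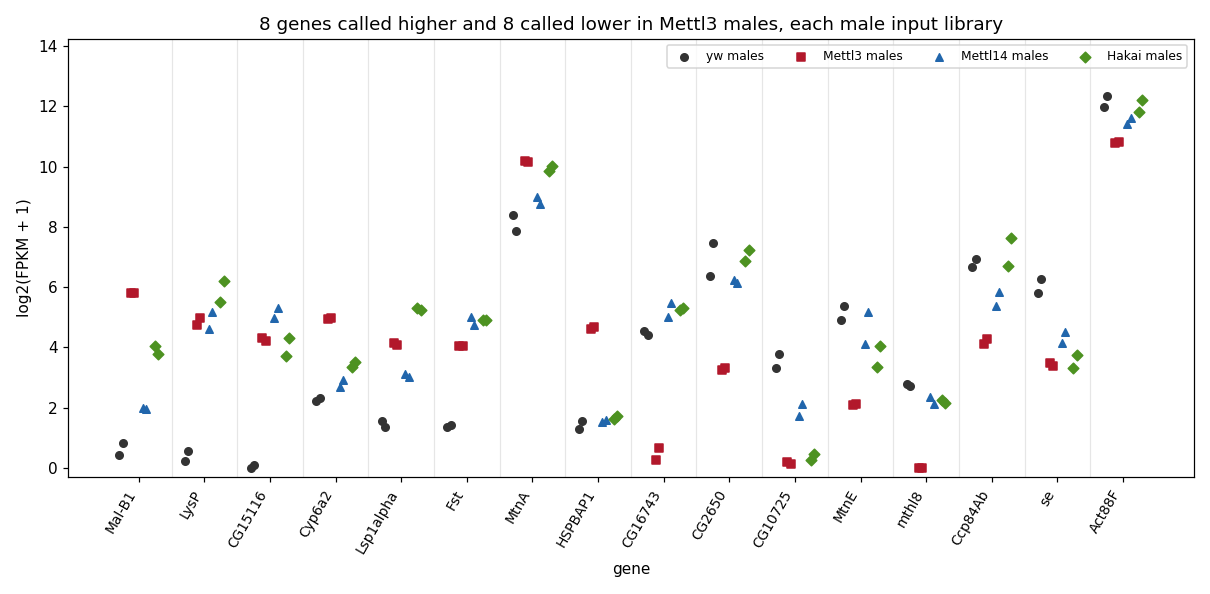
Each point is 1 male input library, with log2(FPKM + 1) on the vertical axis, for 8 genes called higher and 8 called lower in Mettl3 males. In all 16 genes the red Mettl3 points lie apart from the black yw points. HSPBAP1 is high and CG16743 low in Mettl3 males alone, while LysP and se are shifted the same way in the other mutants. CG16743 lies above yw in the other mutants.

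Fat body genes formed the list with the highest median of those examined. The fat body is the insect's liver-like store, and in young adults it still holds larval cells with the serum proteins Lsp1 and Lsp2. Of 17 genes in this list, all tested, 7 were called higher and 0 lower (3.48% of all tested genes were called), and the median log2 fold change was 0.77, against 0.03 over all tested genes. Lsp1alpha was at 1.98 and 1.55 FPKM in yw males and at 16.8 and 15.8 in Mettl3 males, with 7.75 and 7.12 in Mettl14 males and 38.8 and 36.9 in Hakai males. The 4 groups did not overlap, and the Mettl3 pair was above yw (2.65, SE 0.11, adjusted p = 0.00016) and Mettl14 (1.04, adjusted p = 0.0032) and below Hakai (-1.17, adjusted p = 0.0022). Lsp1beta went from 16.8 and 16.3 in yw males to 89.8 and 92.5 in Mettl3 males (2.39, SE 0.10, adjusted p = 0.00016), between Mettl14 at 35.9 and 31.7 and Hakai at 169.6 and 184. Lsp2 was at 52.2 and 25.1 against 186 and 184 (2.32, SE 0.32, adjusted p = 0.0083). Fst (Frost), a gene induced by cold, was at 1.57 and 1.67 against 15.4 in both Mettl3 libraries (2.65, adjusted p = 0.00016), and lower than in the other mutants at 25.9 to 31.2. Obp99b, apolpp (the precursor of the main lipid carrier of the blood) and Fbp2 made up the 7, at 1.81, 1.63 and 1.53. Called directly, 5 of the 17 were higher than in Mettl14 males (where 1.92% of all tested genes were called higher) and 5 were lower than in Hakai males (1.29%). Without Mettl3 replicate 1 or 2, 4 of the 17 were called higher than yw, and Lsp2, Obp99b and apolpp were the 3 lost (adjusted p = 0.058 to 0.092).

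The antimicrobial peptides, the effectors of the Toll and Imd immune pathways, were called higher in 5 of 29 tested members (36 in the table) and lower in 0, where 2.46% of all tested genes were called higher, with a median log2 fold change of 0.52. Over the same yw libraries the median was above 1 in both other mutants (1.38 in Hakai males). Compared directly, 12 of the 29 were lower in Mettl3 than in Mettl14 males (1.87% of all tested genes were called lower) and 12 were lower than in Hakai males (1.29%). CecA2, a cecropin, was at 0.322 and 0 FPKM in yw males, 5.47 and 4.82 in Mettl3 males, 17.4 and 20.9 in Mettl14 males and 14.0 and 18.3 in Hakai males. The Mettl3 pair lay between yw (2.42, SE 0.19, adjusted p = 0.0010) and the other mutants (-1.71, adjusted p = 0.0038, and -1.47, adjusted p = 0.0064). DptB, a diptericin made through Imd, was at 2.45 and 10.3 in yw males and 2.70 and 2.51 in Mettl3 males, but at 37.3 and 58.6 in Mettl14 males and 19.5 and 41.6 in Hakai males. Its yw libraries spanned the Mettl3 pair (-0.79, adjusted p = 0.43), and the direct differences were -3.73 from Mettl14 (adjusted p = 0.013) and -3.03 from Hakai (adjusted p = 0.026). CecA1, AttB, CG18107 and Drsl3 were the other called members, at 1.44, 1.15, 1.01 and 1.66. The count of 5 fell to 2 without yw replicate 2 and to 1 without Mettl3 replicate 1 or 2.

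Upstream of these peptides the test passed a few recognition proteins and no gene of the signalling list. Of 25 Toll and Imd signalling genes, 0 were called or shifted in limma, and 7 had an unadjusted p under 0.05, all higher. Of all tested genes, 16.1% were higher at that unadjusted p. pirk, which restrains Imd signalling, was at 13.0 and 16.7 in yw males and at 29.7 and 31.4 in Mettl3 males (1.01, adjusted p = 0.069), and it was above Mettl14 at 10.3 and 8.25 by 1.63 (adjusted p = 0.015) and above Hakai at 13.7 and 7.48 by 1.50 (adjusted p = 0.019). Of 12 peptidoglycan recognition proteins, 2 were called, both lower (1.02% of all tested genes were), 1 more was higher at an adjusted p under 0.05 and a smaller fold, and the median was 0.32. The latter was PGRP-LC, the receptor of the Imd pathway, at 10.6 and 12.5 in yw males against 17.4 and 18.2 in Mettl3 males (0.59, SE 0.10, adjusted p = 0.019). PGRP-SC2, an enzyme that breaks down peptidoglycan, was at 42.9 and 39.6 against 10.1 and 8.49 (-2.04, SE 0.24, adjusted p = 0.0044), and it was at 6.45 to 12.8 in the other mutants. PGRP-SC1a, of the same kind, was at 19.9 and 22.8 against 5.67 and 5.20 (-1.80, SE 0.21, adjusted p = 0.0050), above Mettl14 at 1.20 and 2.07 and Hakai at 0.271 and 0.770. The Turandot stress peptides TotA, TotB and TotC were the 3 called genes, all higher, of 13 tested targets and parts of JAK-STAT signalling. Of all tested genes, 2.46% were called higher. TotA was at 70.3 and 49.7 in yw males and 172 and 171 in Mettl3 males (1.52, SE 0.19, adjusted p = 0.0063), below Mettl14 at 357 and 443 and Hakai at 372 and 339. Without Mettl3 replicate 1 TotA and TotC lost their calls, and without replicate 2 all 3 did (adjusted p = 0.062 to 0.12).

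**Figure D4:**
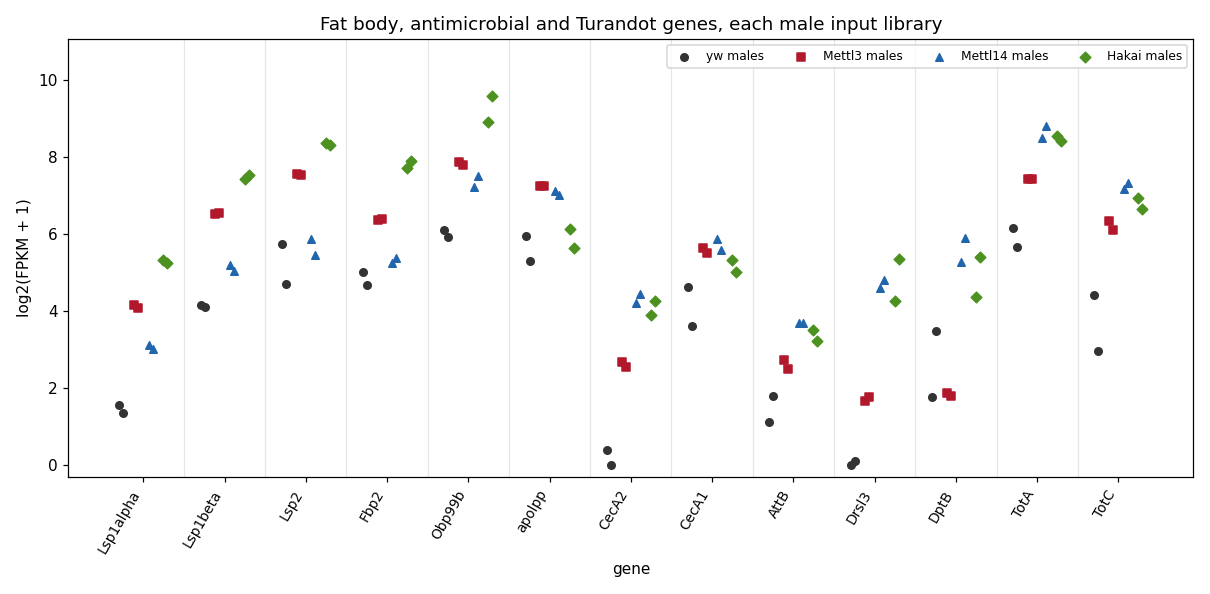
Each point is 1 male input library, with log2(FPKM + 1) on the vertical axis, for genes of the fat body, antimicrobial peptides and Turandots. For Lsp1alpha, Lsp1beta, Lsp2 and Fbp2 the red Mettl3 points lie between Mettl14 and Hakai; for CecA2, Drsl3, DptB and TotA they lie below both.

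The heat shock proteins, chaperones that are induced when proteins misfold, had a median log2 fold change of 0.74 over 25 tested members, with 0 called or shifted in limma. At an unadjusted p under 0.05, 3 were higher and 1 lower (16.1% and 10.3% of all tested genes). Their summed level was 6413 and 14790 FPKM in the yw libraries and 17489 and 17318 in the Mettl3 libraries. In Mettl14 males it was 8919 and 7402 and in Hakai males 8718 and 3804, so the replicates of yw and Hakai males were far apart. Hsp67Bc, a small chaperone, was at 24.4 and 75.2 in yw males against 373 and 375 (3.09, SE 0.75, adjusted p = 0.055), with 44.5 and 27.6 in Mettl14 males and 60.2 and 13.4 in Hakai males. Only the Mettl3 pair was high, above Mettl14 by 3.38 (adjusted p = 0.041) and above Hakai by 3.66 (adjusted p = 0.031). Hsp22, a mitochondrial small chaperone, was at 52.2 and 207 against 569 and 562 (2.43, adjusted p = 0.088), and it overlaps CG4456 on the same strand.

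Cytochrome P450 enzymes oxidise hormones, fatty acids and toxins. Of 74 tested members (86 in the table), 8 were called higher and 1 lower (2.46% and 1.02% of all tested genes). The median was 0.12. At any fold 18 were higher and 3 lower (6.02% and 3.17% of all tested genes). Cyp6a2 (2R, bases 6779749 to 6781491), linked to insecticide resistance, was at 3.68 and 4.05 FPKM in yw males, 29.7 and 30.1 in Mettl3 males, 5.51 and 6.52 in Mettl14 males and 9.25 and 10.4 in Hakai males. The Mettl3 pair was the highest (2.67, SE 0.11, adjusted p = 0.00016) and lay above Mettl14 by 2.14 (adjusted p = 0.00032) and above Hakai by 1.52 (adjusted p = 0.0010). Cyp6a2 overlaps Epac on the same strand. Within 1 cluster of related genes the members differed: Cyp4p1 was at 6.10 and 4.36 against 27.0 and 24.8 (2.12, SE 0.17, adjusted p = 0.0010), and Cyp4p3 at 2.47 and 2.00 against 9.79 and 8.91 (1.68, SE 0.11, adjusted p = 0.00045). Cyp4p2 was at 6.07 and 4.65 in yw and 4.34 and 4.42 in Mettl3 males (-0.23, adjusted p = 0.44), but at 37.8 to 50.2 in the other mutants, and both direct differences passed (-3.05 and -3.03, adjusted p = 0.00042 and 0.00045). Among enzymes that couple sugar to toxins, Ugt35b was at 40.2 and 46.1 in yw males, 15.2 in both Mettl3 libraries, 0.504 and 0.614 in Mettl14 males and 27.7 and 32.1 in Hakai males. The Mettl3 pair was below yw (-1.45, SE 0.12, adjusted p = 0.0011) and above Mettl14 (3.38, adjusted p = 9e-05). GstD5, a glutathione transferase, was at 17.3 and 33.4 against 3.38 and 4.65 (-2.34, SE 0.30, adjusted p = 0.0071), and its call was lost without Mettl3 replicate 1 (0.066).

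Structural cuticle proteins, which build the chitin skeleton as it hardens after emergence, were called lower in 10 and higher in 2 of 53 tested members (121 in the table), against 1.02% and 2.46% of all tested genes, with a median of -0.18. Ccp84Ab (3R, bases 6701968 to 6702877) was at 101 and 121 FPKM in yw males, 16.2 and 18.4 in Mettl3 males, 40.6 and 56.0 in Mettl14 males and 102 and 196 in Hakai males. The Mettl3 pair was the lowest of the 4 (-2.61, SE 0.31, adjusted p = 0.0051). Its neighbour Ccp84Aa was at 15.6 and 10.8 against 2.93 and 2.98 (-1.83, adjusted p = 0.0099), and resilin, the elastic protein of wing hinges, at 3.91 and 5.16 against 0.733 and 0.607 (-1.72, SE 0.14, adjusted p = 0.0011). Cpr49Ac (1.52, adjusted p = 0.0091) and Ccp84Af at 0.179 and 0.581 against 2.67 and 2.76 (1.44, adjusted p = 0.0062) were the 2 higher members. Without Mettl3 replicate 1 or 2, 4 or 5 members were called in place of 12, and Ccp84Aa (adjusted p = 0.081 and 0.077), Cpr49Ac (0.082 and 0.069) and Ccp84Af (0.055 and 0.056) lost their calls, as Ccp84Af did with a pseudocount of 0.1 (0.070). Of 34 tested odorant binding proteins, small carriers of odours and tastants, 4 were called higher and 0 lower: the neighbours Obp57a, Obp57b and Obp57c, and Obp99b. Obp57b was at 14.1 and 17.7 against 46.3 and 46.7 (1.50, SE 0.12, adjusted p = 0.0012), with 36.1 to 39.0 in the other mutants, while Obp57c and Obp99b lost their calls without Mettl3 replicate 1 or 2 (adjusted p = 0.055 to 0.067).

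Flight muscle genes and ribosomal protein genes had medians below that of all tested genes. Of 20 flight muscle genes, 1 was called lower, and 7 were lower and 0 higher at any fold. Of all tested genes, 1.02% were called lower and 3.17% were lower at any fold. The median of the flight muscle list was -0.58, against -0.29 for Mettl14 and -0.08 for Hakai males over the same controls. In 18 of the 20 both Mettl3 libraries were below both yw libraries, where 29.2% of all tested genes were. Their summed level was 27523 and 30343 FPKM in yw and 19084 and 18900 in Mettl3 males. Act88F, the actin of the indirect flight muscle, was at 4041 and 5124 in yw males, 1772 and 1795 in Mettl3 males, 2690.0 and 3088 in Mettl14 males and 3599.6 and 4754 in Hakai males. The Mettl3 pair was the lowest (-1.35, SE 0.24, adjusted p = 0.019), and it was below Hakai (-1.21, adjusted p = 0.026) but not past the test against Mettl14 (-0.69, adjusted p = 0.11). Mhc, the muscle myosin heavy chain, was at 1386 and 1442 against 819 and 815 (-0.79, SE 0.15, adjusted p = 0.026). The count of 7 was 4 or 2 without yw replicate 1 or 2 and 0 without either Mettl3 library, where Act88F also lost its call (adjusted p = 0.17 and 0.16), as it did without yw replicate 2 (0.077) and with no level filter (0.054).

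Of 93 cytosolic ribosomal protein genes, 0 were called or shifted in limma. At an unadjusted p under 0.05, 18 were lower and 1 higher (10.3% and 16.1% of all tested genes). Their median log2 fold change was -0.44, against 0.25 for Mettl14 and 0.15 for Hakai males, and 70 of the 93 had both Mettl3 libraries below both yw libraries (29.2% of all tested genes did). The summed level was 39623 and 47789 FPKM in yw males and 35212 and 35145 in Mettl3 males, so both Mettl3 libraries lay below both controls, which themselves lay far apart. Replicate 2 was also far above replicate 1 in Mettl14 males (43515 and 57835) and Hakai males (41665 and 58219). Of 83 subunits of the oxidative phosphorylation chain, 1 (ND-15) was called lower (1.02% of all tested genes), and the median was -0.37. In 59 of them both Mettl3 libraries lay below both yw libraries, again against 29.2% of all tested genes. Their summed level was 24430 and 29183 FPKM in yw males and 19772.5 and 19700 in Mettl3 males. It was 23364.5 and 30824 in Mettl14 males and 21447 and 29414 in Hakai males. The part of these replicate differences in the medians of both lists was not tested. The 24 tested transcripts of the mitochondrial genome had a median of -0.77, with 0 called or shifted in limma. At an unadjusted p under 0.05, 7 of the 24 were lower (10.3% of all tested genes). ND-15, of respiratory complex I, was at 195 and 229 in yw males, 107 and 96.2 in Mettl3 males, 181 and 224 in Mettl14 males and 180.2 and 242 in Hakai males. Only the Mettl3 pair was low (-1.05, SE 0.19, adjusted p = 0.021), and the direct differences were -0.98 (adjusted p = 0.026) and -1.03 (adjusted p = 0.022). The call was lost without yw replicate 2 (adjusted p = 0.10) and without Mettl3 replicate 1 (0.12) or 2 (0.16).

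Nervous system genes, which matter for the movement defects of writer mutants, and sex determination genes gave 1 call, in the neuropeptide list. Of all tested genes, 3.48% were called, 2.46% higher and 1.02% lower. Of 20 neuron markers 0 were called and 1 was lower at any fold, with a median of -0.02, and of 76 tested genes of chemical synaptic transmission 0 were called, with 4 higher and 9 lower at an unadjusted p under 0.05. Of 10 nicotinic acetylcholine receptor subunits 0 were called or shifted and 2 had an unadjusted p under 0.05, and of 32 neuropeptides and hormones 1 was called, Crz. In that list 4 were higher and 0 lower at any fold (6.02% and 3.17% of all tested genes). At an unadjusted p under 0.05, 11 were higher and 1 lower (16.1% and 10.3% of all tested genes). Crz (corazonin, a stress hormone) was at 3.05 and 2.48 against 7.57 and 6.71 (1.11, SE 0.19, adjusted p = 0.017), a call that was lost without yw replicate 2 (0.093) and without Mettl3 replicate 1 (0.13) or 2 (0.096). Dsk, a neuropeptide that acts in feeding, was at 3.40 and 2.71 against 6.04 and 6.79 (0.87, adjusted p = 0.013), and Ilp6, an insulin-like peptide of the fat body, at 6.51 and 4.31 against 11.2 and 11.4 (0.96, adjusted p = 0.035). Of 21 eye markers 0 were called and 2 were lower at any fold (3.17% of all tested genes). At an unadjusted p under 0.05, 10 were lower (10.3% of all). The eye median was -0.30, and in 14 of the 21 both Mettl3 libraries lay below both yw libraries (29.2% of all). Of 14 genes of sex determination and dosage compensation, 0 were called or shifted, the median was -0.03 and 3 had an unadjusted p under 0.05. Of 11 clock genes 0 were called or shifted, with 3 at an unadjusted p under 0.05. The 14 transcripts that the study tested by qPCR after m6A immunoprecipitation or for splicing were all tested, with 0 called, 0 shifted and 0 at an unadjusted p under 0.05 in limma, and a median of -0.02. Among them Syx1A, which lies in the block beside Mettl3, had the largest change (-0.84, adjusted p = 0.50). The beta subunit of the sodium pump nrv3 was at 132 and 107 against 67.2 and 75.5 (-0.73, SE 0.46, adjusted p = 0.36). The casein kinase gish was at 68.9 and 57.5 against 83.9 and 85.9 (0.43, adjusted p = 0.29). FPKM sums over all isoforms of a gene, so a change of splicing need not move it.

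Markers of tissues and sex gave a check of the samples, where 2.46% of all tested genes were called higher and 1.02% lower. In the gut list, 4 of 26 tested genes were called higher and 1 lower. Directly, 10 were lower and 0 higher than in Mettl14 males (1.87% and 1.92% of all), and 3 were higher and 0 lower than in Hakai males (2.49% and 1.29%). Jon25Bi, a digestive protease, was at 42.8 and 52.6 in yw males, 10.5 and 10.9 in Mettl3 males, 72.3 and 179 in Mettl14 males and 4.03 and 3.15 in Hakai males (-2.05, SE 0.39, adjusted p = 0.024). Leaving out any 1 of its 4 libraries ended that call (adjusted p = 0.061 to 0.15). Of 181 serine endopeptidases tested 15 were called higher and 7 lower, while 32 were called lower and 1 higher than in Mettl14 males, and 4 lower and 11 higher than in Hakai males. In the accessory gland list, the male gland that makes seminal fluid, 2 of 21 were called higher and the summed level was 14793 and 7498 FPKM in yw and 22628 and 22060 in Mettl3 males. Among 73 tested seminal fluid proteins 5 were called higher and 1 lower, and the calls of Acp54A1 (69.6 and 24.6 against 250.3 and 250.1), Sfp24Ba and Spn75F were all lost without either Mettl3 library (adjusted p = 0.072 to 0.13). Testis markers gave 0 calls in 21, with 3 higher and 3 lower at an unadjusted p under 0.05 in limma (16.1% and 10.3% of all). The 10 tested genes of the Y chromosome gave 0 calls and 0 at that unadjusted p. Of 21 female germline and yolk genes 6 reached the level filter, and their summed level was 20.5 and 23.4 in yw and 24.7 and 25.0 in Mettl3 males, with 59.8 to 128 in the other mutants. One of the 6 was called, Cp15, a chorion protein of the eggshell, at 0.258 and 0.253 in yw males against 3.21 and 3.34 (1.77, SE 0.15, adjusted p = 0.0013), with 1.91 to 4.22 in the other mutants. The yolk protein gene Yp1 was at 1.33 and 1.81 against 1.63 and 1.84. The part of these tissue differences in the calls was not tested. w (white), a transporter of eye pigment precursors that is mutated in yw, was at 0.638 and 0.650 in yw males, 2.66 and 2.72 in Mettl3 males and 0.905 to 1.35 in the other mutants (1.17, SE 0.11, adjusted p = 0.0016). The part of this marker's chromosome in other differences was not tested.

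**Figure D5:**
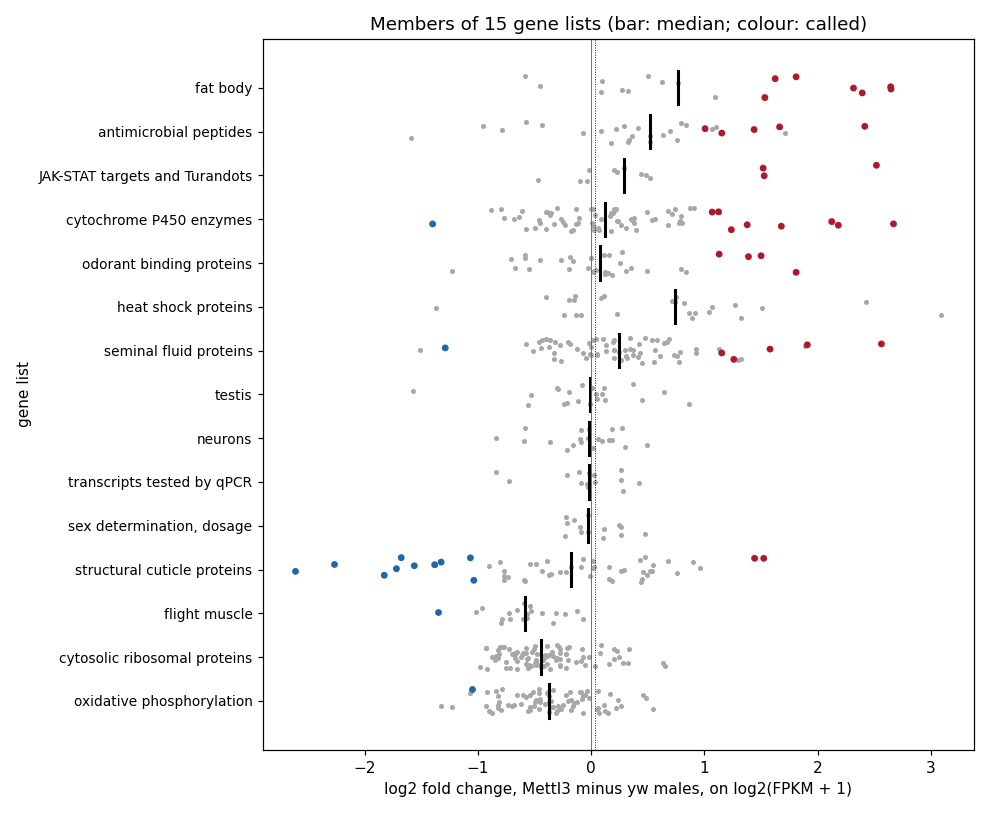
Each point is a tested member of 1 of 15 gene lists, with the log2 fold change between Mettl3 and yw males on the horizontal axis; bars are medians, colours are called genes, and the dotted line is the median of all tested genes (0.03). Fat body (0.77), heat shock (0.74) and antimicrobial genes (0.52) have the highest medians shown and flight muscle genes (-0.58) the lowest, while the sex determination and qPCR lists lie near 0.

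Long non-coding RNAs made up a larger part of the calls than of the tested genes. Of 756 tested lncRNAs, 100 were called higher and 22 lower (16.1%), against 195 and 91 of 10854 protein-coding genes (2.63%). An lncRNA near 0 in yw males, such as lncRNA:CR44971, enters the tested set only through the Mettl3 libraries. The shares therefore depend on the level filter, and they were not counted at a higher level. Where a mean FPKM of at least 5 was required, 48 lncRNAs were called, and without Mettl3 replicate 1 the number was 79. lncRNA:CR43453 was at 6.07 and 7.04 FPKM in yw males, listed at 0 in both Mettl3 libraries, at 0 and 0.0590 in Mettl14 males and at 3.93 and 5.32 in Hakai males (-2.92, SE 0.14, adjusted p = 0.00021). lncRNA:CR43304 was at 0.631 and 1.12 in yw males, 17.0 and 21.2 in Mettl3 males, 21.1 and 19.3 in Mettl14 males and 1.65 and 1.29 in Hakai males (3.42, SE 0.17, adjusted p = 0.00022). In both, Mettl3 and Mettl14 lay together and Hakai with yw. Of the 320 genes called higher, 180 (56.3%) had a mean under 1 FPKM in yw females (97 of the 320 had one under 1 FPKM in yw males), against 29 of the 133 called lower (21.8%) and 23.8% of all tested genes.

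Tested directly, 493 genes were called between Mettl3 and Mettl14 males (3.79%), 250 higher (1.92%) and 243 lower (1.87%) in Mettl3 males, and 492 between Mettl3 and Hakai males (3.78%), 324 higher (2.49%) and 168 lower (1.29%). At any fold, 568 genes were higher (4.37%) and 765 lower (5.88%) than in Mettl14 males (10.3% in all), and 937 higher (7.21%) and 552 lower (4.25%) than in Hakai males (11.5%). The called counts are as large as the 453 between Mettl3 and yw males. Called higher in Mettl3 males than in both other mutants were 131 genes and lower 81. Of the 320 genes called higher than yw, 97 were also higher than Mettl14, 105 higher than Hakai and 55 higher than both, and of the 133 called lower the numbers were 62, 48 and 34; all 3 comparisons share the Mettl3 libraries. Without Mettl3 replicate 1 or 2, 249 or 259 genes were called against Mettl14 and 248 or 258 against Hakai, and without Mettl14 replicate 2 the former was 325. The largest differences from both mutants included genes at the level of yw. CR33319 (2L, bases 20928824 to 20929525) was at 74.7 and 91.4 FPKM in yw and 95.6 and 96.3 in Mettl3 males, but at 0 and 0.0863 in Mettl14 males and 0.632 and 0.208 in Hakai males (direct differences 6.54, adjusted p = 2.7e-05, and 6.11, adjusted p = 4.2e-05). CG43829, at 15.8 and 12.3 in yw, 11.7 and 13.4 in Mettl3 and at most 0.438 in the other mutants, and lncRNA:CR45022, at 9.26 and 4.22, 9.77 and 11.5 and at most 0.0894, had the same pattern. In these 3 genes Mettl3 males lay near the controls and the other mutants were near 0.

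m6A peaks, called by the authors from the immunoprecipitation libraries as 1 list per genotype, were set beside the RNA levels. The Mettl3 male list held 21050 peaks, more than the 20153 of the yw male list. These totals count peaks of any enrichment, so they do not measure the level of m6A. The study reports fewer peaks in Mettl3 than in yw males once weakly enriched peaks were removed. Among peaks that changed in Mettl3 males, it reports many more reduced than increased. Of the yw male peaks, 4694 had no counterpart in the Mettl3 list (no Mettl3 peak overlapping by more than 50% of the smaller one). The 2677 tested genes with such a lost peak had a median log2 fold change of 0.05, against 0.03 over all tested genes, and 2.20% of them were called (3.48% of all). For the 1547 with a lost peak in the 5' UTR the median was 0.06 and 1.62% were called. A peak that shrank but stayed in the Mettl3 list counts as kept, so genes with no lost peak may still have less m6A. The study found lower m6A in Mettl3 males by qPCR for each transcript named next. Oda, nrv3, gish, CG2991, S6k and cv-2 had a lost 5' UTR peak by this rule, and fl(2)d, Atpalpha, pum, Syx1A and MESK2 had none. Genes with no yw peak were called most often: 5.58% of 3745, against 2.64% of the 9256 with a peak. Among the genes called higher 51.9% had a yw peak and among those called lower 58.6%, where 71.2% of all tested genes did. The genes with no peak had a lower median level (7.32 FPKM) than those with one (11.5 FPKM), and the part of level in these shares was not tested. A yw peak needs reads in yw males, and 97 of the 320 genes called higher had a yw mean under 1 FPKM. Such genes reach the level filter only through the Mettl3 libraries, so the shares by peak depend on that filter. Each peak list has no replicate check of its own.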

How the data were processed

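Input libraries were strand-specific and made from poly(A) RNA of whole flies. The authors trimmed reads with fastp, aligned them with HISAT2 and computed the deposited FPKM with StringTie. They called peaks with exomePeak and annotated them with ChIPseeker. The fold value deposited for each peak is exomePeak's ratio of immunoprecipitated to input reads. No read counts were used, so depth is unknown, and FPKM sums per male input library ran from 564764 to 633936. Values were tested as log2(FPKM + 1) with limma 3.58.1 in R 4.3.3 (lmFit, eBayes with trend) in 1 fit of the 8 male input libraries, with Benjamini-Hochberg adjustment over 13001 genes. In simulated data, 34 of 67 at a log2 change of 0.8, 58 of 67 at 1.5, 62 of 66 at 2.5 and 6 of 12801 unchanged genes passed the adjusted p. The simulation drew independent errors with the same spread in every group, and planted changes only in genes above a set level. In the real libraries the Mettl3 pair was closer together, and same-numbered libraries of the other groups deviated together. The simulated shares are therefore not error rates of these data.

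The fold change on this scale understates changes of low genes. The labels do not say that replicates were separate animals or RNA preparations, so p-values measure only the spread between these libraries. Biotypes came from RefSeq by symbol (12063 tested genes matched), and coordinates are those of the table, which match Release 6. Genes named are Mettl3, the 15 largest rises and falls, the 5 most abundant called genes in each direction, up to 4 members of each list with the largest change (all members of short lists), genes within 50 kb of Mettl3, and the 5 largest differences from both mutants in each direction. The other names (Fbp2, apolpp, CecA1, AttB, CG18107, Obp57c, Mhc, ND-15, Cpr49Ac, Ccp84Af, genes of the block beyond 50 kb) were chosen after their values were seen. The gene lists and comparisons were chosen with earlier results of these data known. No sequences were at hand to print.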

Additional observations from a re-analysis of the deposited data

How the results depend on the processing

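Read depth is unknown, so what it limits could not be measured. With a mean FPKM of at least 5 required, 266 genes were called between Mettl3 and yw males, 699 passed at any fold, and 291 and 300 were called against Mettl14 and Hakai males. Leaving out 1 library at a time, the ranges were 247 to 552 called, 263 to 1066 at any fold, 249 to 453 against Mettl14, 248 to 501 against Hakai, and 3 to 12 for the genes within 250 kb of Mettl3 and for the block from Mettl3 to Npc2f. A lone library of a group was then assumed to vary like the other groups. Deviations from the group mean of same-numbered libraries correlated at 0.505 for yw and Mettl14, 0.465 for yw and Hakai and 0.672 for Mettl14 and Hakai, but at 0.020 to 0.064 for Mettl3 with the others, so the replicate numbers were not taken to pair the Mettl3 libraries. With a replicate block, 535 genes were called and 2263 passed at any fold, with 605 and 575 called against Mettl14 and Hakai. A pseudocount of 0.1 gave 582 calls, no filter 472, a fit of the 4 libraries alone 460, equal medians of all libraries 433, no variance trend 451 and an unadjusted p 561. No result reversed. The median of genes with a lost peak was 0.05 with any overlap counted and 0.07 for peaks of fold enrichment at least 5. Counts for the block and for single lists were chosen after seeing the data. For the lists, the antimicrobial count of 5 became 2 at a mean FPKM of at least 5 and 8 with the block, the cuticle count of 12 became 6 at that level, and the flight muscle count of 7 became 4 with no filter and 12 with the block. Of 107 named called genes, 61 kept their call in every alternative in which they were tested, as 154 of the 192 named genes not called kept theirs.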
